A study of Homo sapiens with 4 samples.

Results

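Genes whose transcription is tied to FOXO factors, or to the same growth factor and nutrient signals, were followed in MM134 cells: TXNIP, ARRDC3, ARRDC4, TRIB2, PIK3IP1, SESN1, SESN3, CCNG2, KLF9 and BCL6. All 10 were found by symbol among 60675 genes in the tables, and all 10 passed the filter on low counts that 16538 genes passed. The group was chosen by name, with the measured differences between the lines already known, so those differences are given below as a description with no test. MM134 is a lobular breast cancer cell line. The HER2 L755S line carried a receptor with a substitution in its kinase domain, and the HER2 WT line carried the wild-type receptor. Both were kept for 7 days in phenol red free medium with 5% charcoal-stripped serum, which deprives cells of estrogen, so the deprivation is common to both groups and no library with estrogen was analysed here. Each line had 2 libraries of poly(A) RNA, numbered 1 and 2, and what the number stands for, how the receptors were introduced and whether a line is 1 clone are not given in the sources used here. As nothing says that the libraries of a line were separate cultures, every p-value covers the spread of these libraries alone.

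FOXO proteins are transcription factors that are phosphorylated by AKT and SGK kinases when PI3K is active, leave the nucleus, and then stop inducing genes of growth arrest, stress defence and feedback. HER2, with its partner HER3, is a strong activator of PI3K in breast epithelium. TXNIP and ARRDC4 also answer to glucose through the factor MondoA and its partner MLX, and KLF9 is induced by glucocorticoids and thyroid hormone, so no single input governs these genes.

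The tables held 27423259 to 31088398 expected counts per library. Gene positions below are those of GENCODE 29 on GRCh38. Mitochondrial transcripts took 4.03% and 13.47% of them in HER2 L755S 1 and 2, and 4.395% and 8.834% in HER2 WT 1 and 2. This share lowers the TPM of all other genes, so levels per transcript length are given in TPM, and differences are on log2 CPM scaled with TMM. The 7 luminal markers (KRT8, KRT18, KRT19, GATA3, FOXA1, ESR1 and EPCAM) summed to 4929 to 5883 TPM in HER2 L755S and 6649 to 7381 TPM in HER2 WT, and none was called between the lines by edgeR, DESeq2 or limma-voom, with 1 unadjusted p under 0.05 (ESR1, log2 -1.29, edgeR adjusted p = 0.15). ESR1 did pass by edgeR with no filter and with the number as a block (adjusted p = 0.01 and 0.00017). With 1 library left out its log2 value ran from -1.83 to -0.89. Of 10 leukocyte markers none was tested, their summed TPM was 0.02 to 0.85 in HER2 L755S and 0.45 to 1.37 in HER2 WT, and CD3D, CD3E and MS4A1 were among those with no count. The 11 fibroblast and endothelial markers summed to 14.9 to 37.7 TPM in HER2 L755S and 19.1 to 32.9 TPM in HER2 WT, mostly from COL1A1, with CDH5 and PECAM1 at 0. COL1A2 had 6 and 0 counts in number 1 of HER2 L755S and HER2 WT, and 49 and 45 in number 2. COL3A1 had 0 and 1 counts in number 1 of these lines, and 32 and 53 in number 2. COL1A1 went the other way, with 3332 and 3253 counts in number 1 and 1501 and 1481 in number 2. The 6 basal markers summed to 0.54 to 0.58 TPM in HER2 L755S and 0.39 to 0.40 TPM in HER2 WT.

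The promoters below are shown because the group is defined by transcription factors that read DNA, and the letters let a reader see which genes carry the FOXO core near a start site. RefSeq promoter windows on GRCh38.p14, from 250 bases before to 50 bases after a start, were found for all 10 genes, 16 windows in all. The FOXO core TGTTTAC, searched on both strands, lay in windows of 4 of the 10 genes (TXNIP, ARRDC3, TRIB2 and PIK3IP1). It lay in windows of 4.19% of 27305 genes, and of 3.42% of 35116 windows. The E-box CACGTG lay in windows of 2 of the 10 (ARRDC4 and CCNG2), and of 8.77% of all genes. A match is a run of letters and no measured binding, and genes with more windows have more chances of a match. The TXNIP promoter on the minus strand (chr1:145996530-145996829) has in capitals the FOXO core, read here as GTAAACA from base -124, and the paired box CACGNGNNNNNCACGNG from base -88. The paired box is the known carbohydrate response element of this gene, searched for that reason, and it lay in windows of 0.0732% of all genes. The TRIB2 promoter on the plus strand (chr2:12716686-12716985) has the FOXO core in capitals at base -249. Shorter windows follow for ARRDC3 and PIK3IP1, with the FOXO core in capitals, and for ARRDC4 and CCNG2, with the E-box in capitals.
TXNIP: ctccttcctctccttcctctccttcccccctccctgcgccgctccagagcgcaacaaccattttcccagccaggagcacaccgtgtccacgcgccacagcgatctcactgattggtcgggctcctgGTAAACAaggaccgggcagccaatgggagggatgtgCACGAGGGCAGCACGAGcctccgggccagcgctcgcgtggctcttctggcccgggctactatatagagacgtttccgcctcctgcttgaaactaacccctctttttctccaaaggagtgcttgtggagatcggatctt
TRIB2: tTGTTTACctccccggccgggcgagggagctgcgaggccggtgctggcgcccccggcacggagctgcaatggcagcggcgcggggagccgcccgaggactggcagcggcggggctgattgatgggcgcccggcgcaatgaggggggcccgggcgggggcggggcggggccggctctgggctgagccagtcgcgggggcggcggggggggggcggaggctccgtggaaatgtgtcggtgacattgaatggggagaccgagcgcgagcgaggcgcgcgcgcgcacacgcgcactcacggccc
ARRDC3, FOXO core, chr5:91380098-91380148, minus strand: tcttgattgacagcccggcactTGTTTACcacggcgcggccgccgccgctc
PIK3IP1, FOXO core, chr22:31292444-31292494, minus strand: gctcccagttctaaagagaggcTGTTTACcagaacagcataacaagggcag
ARRDC4, E-box, chr15:97960471-97960520, plus strand: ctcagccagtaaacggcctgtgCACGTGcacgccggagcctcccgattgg
CCNG2, E-box, chr4:77157155-77157204, plus strand: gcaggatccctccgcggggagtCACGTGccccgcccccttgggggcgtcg

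The 10 genes did not move one way between the lines. KLF9, TRIB2, SESN3 and SESN1 stood higher in the L755S line, TXNIP, BCL6 and PIK3IP1 were lower, and ARRDC3, ARRDC4 and CCNG2 lay within the spread of the libraries or close to it. Of the 10 genes, 2 (KLF9 and TRIB2) were among the higher genes called by edgeR's quasi-likelihood test at an adjusted p under 0.05, beside 0.738% of all tested genes. Of the lower calls, 1 was TXNIP, beside 0.949% of all tested genes. In CPM 8 of the 10 did not overlap between the lines, beside 36.2% of all tested genes. The difference was positive within both numbers for 6 genes, negative within both for 3 and of opposite signs for 1, against 33.4%, 32.1% and 34.5% of all tested genes. These counts describe the contrast on which the genes were picked, and nothing is read from them.

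**Figure D1:**
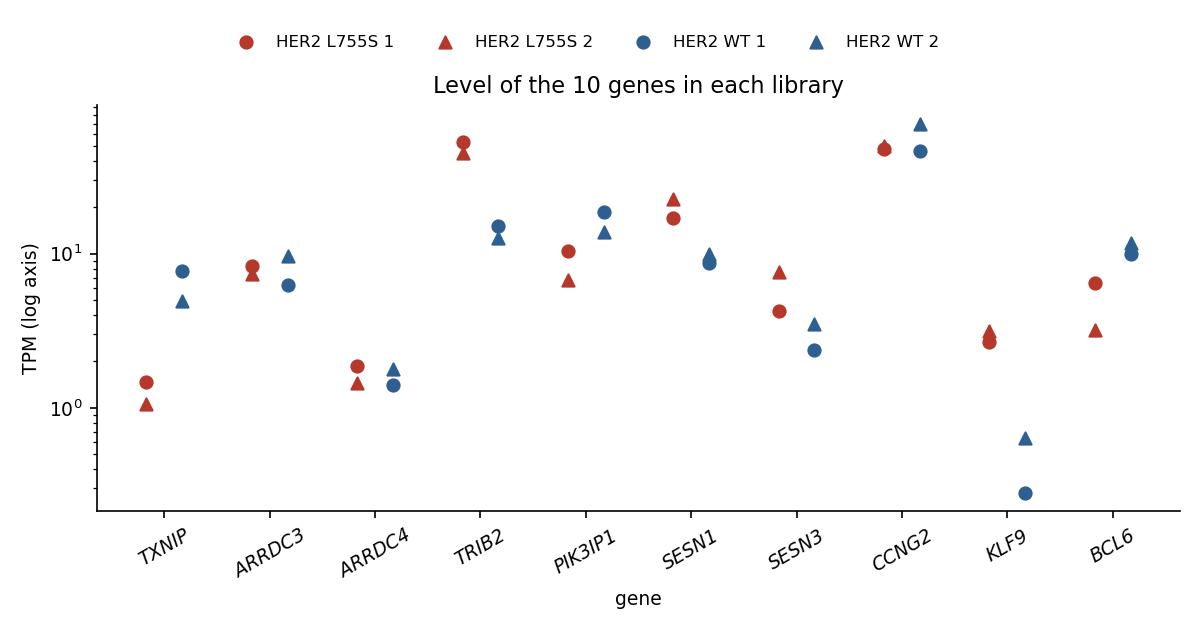
TPM (log axis) of the 10 genes in each library, HER2 L755S in red left of HER2 WT in blue, with circles for number 1 and triangles for number 2; no error bar is drawn. TRIB2, SESN1, SESN3 and KLF9 sat higher in both HER2 L755S libraries, TXNIP, PIK3IP1 and BCL6 sat lower, and the groups of ARRDC3, ARRDC4 and CCNG2 overlapped.

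**Figure D2:**
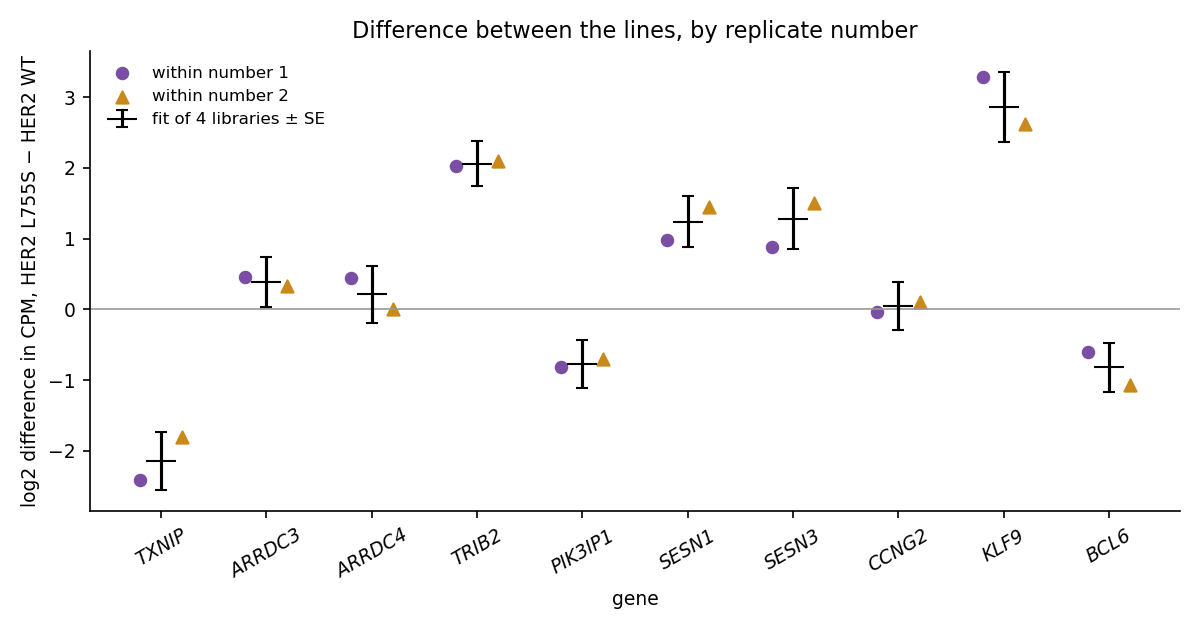
Difference in log2 CPM, HER2 L755S minus HER2 WT, within number 1 (circles), within number 2 (triangles) and in the fit of all 4 libraries (bar with its SE). The values ran from -2.15 for TXNIP to 2.86 for KLF9 in the fit, and the numbers gave opposite signs only for CCNG2 (-0.04 and 0.11).

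TXNIP, ARRDC3 and ARRDC4 encode alpha-arrestins, adaptors that help bring membrane proteins to ubiquitin ligases. TXNIP (ENSG00000265972, chr1:145992435-145996600, minus strand), which also binds thioredoxin and restrains glucose uptake, stood at 1.47 and 1.06 TPM in HER2 L755S 1 and 2, against 7.73 and 4.96 TPM in HER2 WT 1 and 2. Both HER2 L755S libraries lay below both HER2 WT libraries. The counts behind these levels were 84 and 73 in HER2 L755S, against 498 and 288 in HER2 WT. The fitted log2 fold change was -2.15 (SE 0.41), or 4.42 times lower in HER2 L755S, with -2.41 within number 1 and -1.80 within number 2. The genes near TXNIP mostly had negative values as well. Of 13 tested genes within 1 Mb with a mean of at least 5 CPM, 12 had a negative log2 fold change, and their median was -0.52 (-0.53 and -0.37 within the numbers). Several are NBPF genes, such as NBPF10 (-2.24), near-identical copies among which reads may be split.

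The other alpha-arrestin genes did not share the TXNIP difference. ARRDC3 (ENSG00000113369, chr5:91368724-91383359, minus strand), an adaptor for the turnover of receptors and integrins, stood at 8.27 and 7.41 TPM in HER2 L755S, against 6.27 and 9.63 TPM in HER2 WT, so the lines overlapped. Its sign depended on the scale. Within number 2 the difference was 0.33 in log2 CPM and -0.38 in log2 TPM, while the mean transcript length that RSEM assigned was 4131 bases in HER2 L755S 2 and 3232 bases in HER2 WT 2. ARRDC4 (ENSG00000140450, chr15:97960698-97973838, plus strand), whose protein resembles TXNIP and is also linked to glucose, stood at 1.86 and 1.44 TPM in HER2 L755S, against 1.41 and 1.79 TPM in HER2 WT. Its fitted log2 fold change was 0.21 (SE 0.40), with 0.44 within number 1 and 0.01 within number 2. In log2 TPM the ARRDC4 differences were 0.40 within number 1 and -0.31 within number 2, with an assigned length of 4072 bases in all libraries. The sign of ARRDC4 thus also depended on the scale, at an unchanged length. ARRDC3 overlaps the noncoding gene ARRDC3-AS1 on the other strand, which had 29.58 and 30.62 expected counts in HER2 L755S and 43.34 and 20.36 in HER2 WT, small beside 526 to 739 for ARRDC3.

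TRIB2 and PIK3IP1 act on the kinase cascade itself. TRIB2 (ENSG00000071575, chr2:12716889-12742734, plus strand) encodes a pseudokinase that brings substrates to a ubiquitin ligase and has been linked to FOXO restraint in melanoma. It stood at 53.0 and 45.3 TPM in HER2 L755S, against 15.2 and 12.6 TPM in HER2 WT. The lines were well apart, and the numbers gave nearly the same log2 difference, 2.02 within number 1 and 2.10 within number 2. The fit gave 2.06 (SE 0.32), a fold of 4.17. On log2 (TPM + 1) it was 1.75. PIK3IP1 (ENSG00000100100, chr22:31281593-31292534, minus strand), a membrane protein that inhibits the catalytic subunit of PI3K, stood at 10.4 and 6.75 TPM in HER2 L755S, against 18.7 and 13.8 TPM in HER2 WT. Each HER2 L755S library was below both HER2 WT libraries, and the fit gave -0.77 on the log2 scale (SE 0.34), beside -0.82 within number 1 and -0.70 within number 2. The FOXO core lay at base 17 in a PIK3IP1 window and at base -249 in the TRIB2 window. Its part in the difference of either gene was not tested.

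The sestrins restrain mTORC1, the growth kinase complex that senses amino acids, by binding GATOR2. SESN1 (ENSG00000080546, chr6:108986437-109094819, minus strand), also a target of p53, stood at 17.0 and 22.6 TPM in HER2 L755S, against 8.74 and 9.96 TPM in HER2 WT. Its log2 fold change was 1.24 (SE 0.36), with 0.98 within number 1 and 1.44 within number 2. SESN3 (ENSG00000149212, chr11:95165513-95232541, minus strand), the sestrin best known as a FOXO target, stood at 4.23 and 7.58 TPM in HER2 L755S, against 2.37 and 3.49 TPM in HER2 WT. The lines did not overlap, but HER2 L755S 2 was far above HER2 L755S 1. Its log2 fold change was 1.28 (SE 0.43), with 0.88 and 1.50 within the numbers, and it was 0.56 without HER2 L755S 2. The remaining sestrin gene, SESN2, stood at 26.7 and 10.6 TPM in HER2 L755S, against 17.2 and 9.96 TPM in HER2 WT, and was not called (log2 0.58, edgeR adjusted p = 0.82). SESN1 lies among genes that were also higher: 10 of 11 neighbours within 1 Mb had a positive log2 fold change, with a median of 0.35. Antisense genes that overlap PIK3IP1, SESN1 and SESN3 had at most 3, 8.7 and 15 expected counts in a library.

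CCNG2 (ENSG00000138764, chr4:77157151-77433388, plus strand) encodes an unusual cyclin that goes with exit from the cell cycle and is held down by estrogen in breast cells. It stood at 47.6 and 49.7 TPM in HER2 L755S, against 46.4 and 69.7 TPM in HER2 WT, and was the most abundant of the 10 transcripts in each library but HER2 L755S 1, where TRIB2 was above it. The lines overlapped, and the log2 fold change was 0.05 (SE 0.34).

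KLF9 and BCL6 encode DNA-binding proteins, and they moved apart. KLF9 (ENSG00000119138, chr9:70384597-70414624, minus strand), a factor that restrains growth and relays hormone signals, stood at 2.68 and 3.16 TPM in HER2 L755S, against 0.28 and 0.64 TPM in HER2 WT. Its counts were 302 and 399 in HER2 L755S, against 34 and 73 in HER2 WT. KLF9 had the largest difference of the 10, a log2 fold change of 2.86 (SE 0.50) or 7.27 times higher in HER2 L755S, with 3.28 and 2.62 within the numbers. Without HER2 WT 2 the value was 3.64, as HER2 WT 1 was the lowest library. BCL6 (ENSG00000113916, chr3:187721377-187745727, minus strand), a transcriptional repressor, stood at 6.42 and 3.20 TPM in HER2 L755S, against 9.90 and 11.8 TPM in HER2 WT. Its log2 fold change was -0.82 (SE 0.35), with -0.60 within number 1 and -1.07 within number 2. In TPM the difference within number 2 was -1.88, where the assigned transcript length was 3404 bases in HER2 L755S 2 and 2508 bases in HER2 WT 2. KLF9, with the same assigned length in all libraries, also had a lower value in log2 TPM within number 2 (2.30, against 2.62 in log2 CPM). Neither gene followed its neighbours: the 2 tested near KLF9 had a median of -0.01, and the 3 near BCL6 had a median of 0.01.

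**Figure D3:**
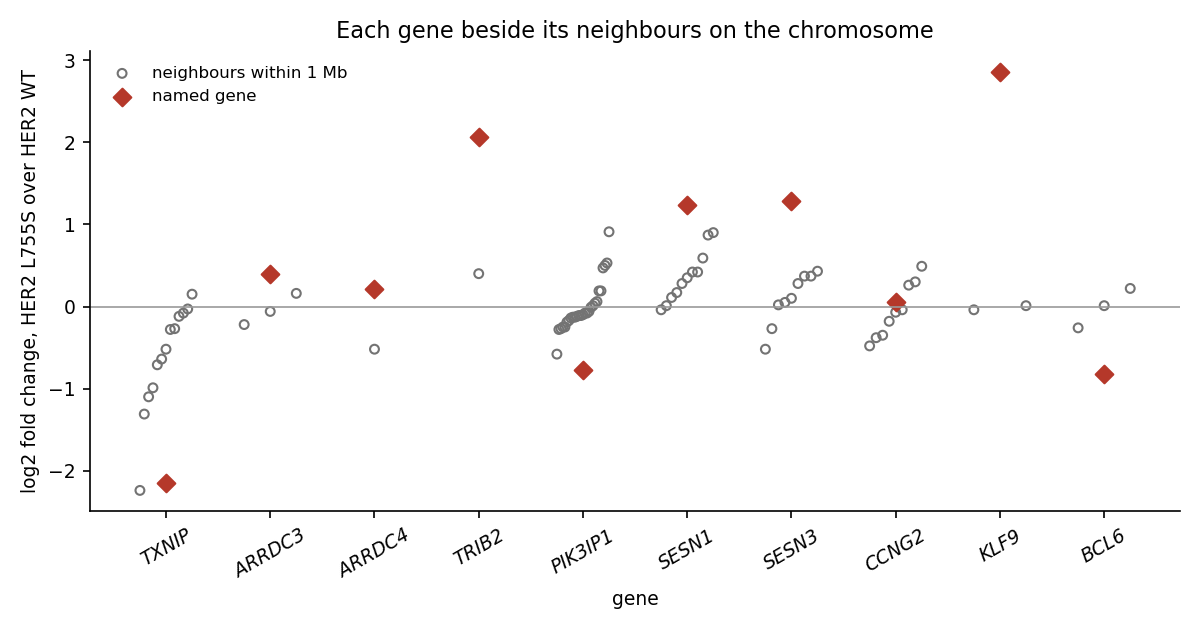
Log2 fold change, HER2 L755S over HER2 WT, of each of the 10 genes (red diamonds) beside tested genes within 1 Mb of it that averaged at least 5 CPM (open circles, ordered by value). Of 13 genes near TXNIP 12 were below 0 and of 11 near SESN1 10 were above 0, while KLF9 (2.86) and TRIB2 (2.06) stood far above the few genes near them.

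By level, the order of the 10 genes changed at its ends. TXNIP was the lowest of the 10 in both HER2 L755S libraries, below ARRDC4 at 1.86 and 1.44 TPM, while in HER2 WT the lowest was KLF9, below ARRDC4 at 1.41 and 1.79 TPM. CCNG2 and TRIB2 were the top pair in HER2 L755S, and their neighbouring levels (47.6 against 53.0 TPM in HER2 L755S 1, 49.7 against 45.3 TPM in HER2 L755S 2) changed order between the libraries. In HER2 WT the gene below CCNG2 was PIK3IP1 (18.7 and 13.8 TPM), whose range overlapped that of TRIB2 (15.2 and 12.6 TPM). The transcripts that RSEM assigned to KLF9 and ARRDC4 had the same length in all libraries, at 5175 and 4072 bases, so their TPM was not altered by a change in assigned length.

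The other genes of the pathway were taken from lists of known function, none of whose genes is among the 10, and were tested between the lines. The lists were chosen with earlier results of these data known, so calls in them are not independent of that choice. The genes of the FOXO factors themselves did not pass. FOXO3, the most abundant with FOXO4, stood at 12.1 and 11.2 TPM in HER2 L755S, against 8.57 and 12.2 TPM in HER2 WT (log2 0.35, edgeR adjusted p = 0.92). FOXO4 stood at 15.3 and 9.77 TPM in HER2 L755S, against 16.8 and 20.6 TPM in HER2 WT (log2 -0.37, adjusted p = 0.91). FOXO6 stood at 2.65 and 1.42 TPM in HER2 L755S, against 6.16 and 3.33 TPM in HER2 WT (log2 -1.07, adjusted p = 0.39). FOXO1, at 0.45 and 0.74 TPM in HER2 L755S and 0.89 and 1.36 TPM in HER2 WT, was the lowest of the 4 (log2 -0.69, adjusted p = 0.83). None of the 4 passed with DESeq2 or limma-voom either, and 1 (FOXO6) had an unadjusted p under 0.05. FOXO6 did pass by edgeR with the number as a block (adjusted p = 0.028). RNA says nothing of where FOXO proteins were or how they were phosphorylated.

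Of 35 tested genes in 4 lists of other FOXO targets, 1 fell and none rose, beside 0.949% and 0.738% of all tested genes. The 35 had a median log2 fold change of -0.18, against 0.00 for all tested genes, with -0.05 within number 1 and -0.31 within number 2. The gene that fell was FBXO32, which encodes the ubiquitin ligase subunit atrogin-1. It stood at 1.38 and 1.46 TPM in HER2 L755S, against 9.18 and 7.03 TPM in HER2 WT, with no overlap. Its log2 fold change was -2.83 (SE 0.41, adjusted p = 0.0067 by edgeR), with -2.49 and -3.07 within the numbers, and it was called at 0.05 under each other scaling, filter, tool and left-out library (adjusted p up to 0.01). FBXO32 lies on chromosome 8, where 12 of 13 neighbours within 1 Mb had negative values too, with a median of -0.39, and the part of its position in the difference was not tested.

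The receptor feedback list, 7 genes by which FOXO factors raise insulin and growth factor signalling, had 6 negative values and a median of -0.51. IRS2, the insulin receptor substrate that carries PI3K signals, stood at 0.38 and 0.32 TPM in HER2 L755S, against 1.40 and 1.25 TPM in HER2 WT. The lines did not overlap, but IRS2 missed the threshold (log2 -1.74, SE 0.40, edgeR adjusted p = 0.06) and was called by DESeq2 (adjusted p = 0.0063) and by edgeR with no filter (adjusted p = 0.0094). INSR, the insulin receptor gene, had a log2 fold change of -0.63 (adjusted p = 0.66). None of the 7 was called by limma-voom or by edgeR with the filter and no block for the number. Of the 7, 1 (IRS2) had an unadjusted p under 0.05, and edgeR with the number as a block called it (adjusted p = 0.0011). Of 8 cell cycle targets 6 had positive values (median 0.15), and of 6 apoptosis targets 4 did (median 0.23). In these 2 lists no gene was called by edgeR, DESeq2 or limma-voom, and none had an unadjusted p under 0.05. The list of redox, autophagy and metabolism, which holds FBXO32, had a median of -0.34 over 14 genes.

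**Figure D4:**
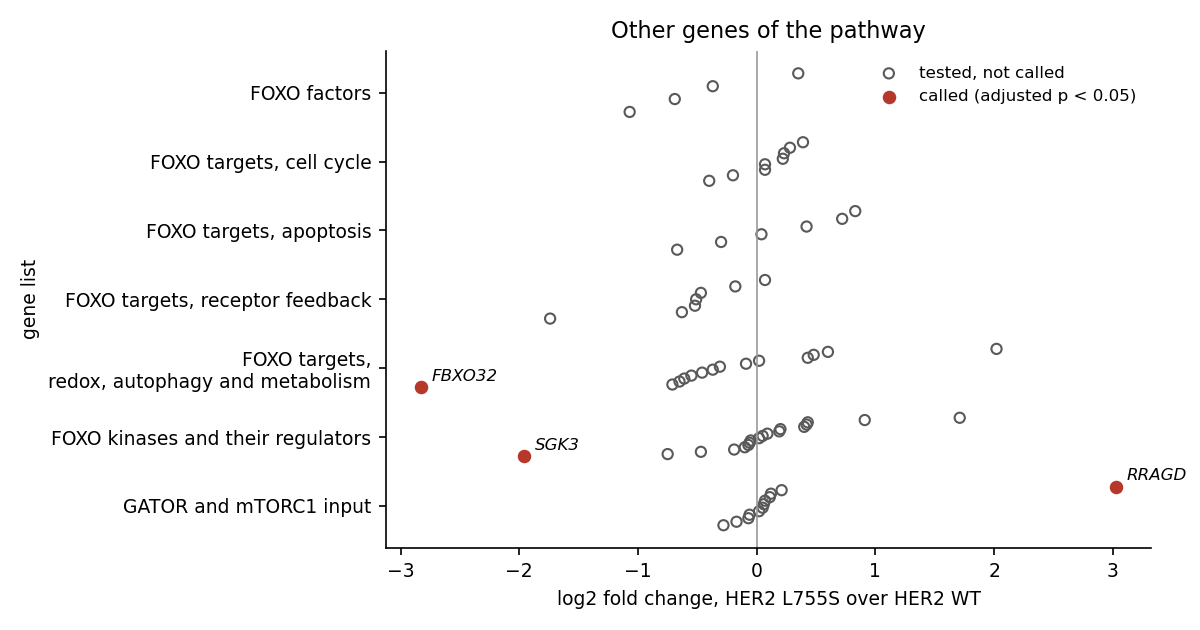
Log2 fold change, HER2 L755S over HER2 WT, of each tested gene in 7 lists (1 circle a gene, ordered by value within its list). Filled circles passed edgeR's test at an adjusted p under 0.05: FBXO32 (-2.83) and SGK3 (-1.96) lower, RRAGD (3.03) higher.

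Of 18 tested genes for FOXO kinases and their regulators, 10 had positive and 8 negative values (median 0.04). Among them 1 was called lower and none higher, beside 0.949% and 0.738% of all tested genes. The gene called was SGK3, one of the kinases that phosphorylate FOXO factors, at 2.10 and 1.23 TPM in HER2 L755S against 4.68 and 9.72 TPM in HER2 WT (log2 -1.96, SE 0.40, edgeR adjusted p = 0.036). Its call was lost without HER2 L755S 1 or HER2 WT 2 (adjusted p = 0.06 and 0.072), and all 10 of its neighbours within 1 Mb on chromosome 8 had negative values (median -0.79). The difference of SGK3 was already known when the list was written. SGK2, its paralog, had 7.35 and 7.56 CPM in HER2 L755S against 2.66 and 1.89 CPM in HER2 WT. It did not pass by edgeR (log2 1.71, adjusted p = 0.075), though DESeq2 and edgeR with the number as a block called it. Of the AKT genes, AKT1 had a log2 fold change of 0.09 (SE 0.31) and AKT2 of -0.10 (SE 0.33), and neither passed.

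On the mTORC1 side, 12 genes for GATOR complexes and RAG proteins were tested, of which 8 had positive values. Of the 12, 1 was called higher, beside 0.738% of all tested genes. RRAGD, a RAG protein that brings mTORC1 to lysosomes, stood at 2.98 and 1.13 TPM in HER2 L755S, against 0.20 and 0.25 TPM in HER2 WT. Its log2 fold change was 3.03 (SE 0.54, edgeR adjusted p = 0.018), with 3.21 and 2.72 within the numbers, and it stayed called at 0.05 under each other scaling, filter, tool and left-out library (adjusted p up to 0.027), but not at a threshold of 0.01. The median of the 12 genes was 0.05, beside 0.00 for all tested genes. The closest paralogs of the 10 genes did not pass by edgeR with all 4 libraries, the filter and no block for the number. TRIB3 had a log2 value of 1.62 (adjusted p = 0.16, and 0.025 with DESeq2). TRIB1 had 0.78 (adjusted p = 0.41) and the arrestin gene ARRB1 had -1.16 (adjusted p = 0.18). With the number as a block, edgeR called TRIB3, TRIB1 and ARRB1 (adjusted p = 9.9e-05, 0.013 and 0.0039). TRIB3 passed by edgeR with no filter, without HER2 WT 1 or without HER2 L755S 2 (adjusted p = 0.0014, 0.0072 and 0.00054), and its value was 0.67 without HER2 L755S 1. ARRB1 passed by edgeR with no filter or without HER2 L755S 1 (adjusted p = 0.03 and 0.017). Of 13 tested KLF paralogs 8 had negative values, and KLF13 had -0.93 (adjusted p = 0.25). None of these 13 was called by edgeR without the block, DESeq2 or limma-voom, and 3 had an unadjusted p under 0.05. With the number as a block, edgeR called KLF6, KLF7, KLF13 and KLF15.

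The replicate number gave a comparison that had no part in the choice of the genes. Number 2 was set against number 1 with the line as a term, and 3 of the 10 genes were called higher in number 2 (SESN3, CCNG2 and KLF9), beside 8.26% of all tested genes. None of the other 7 passed in either direction, with 9.94% of all tested genes called lower. SESN3 stood at 70.3 CPM in HER2 L755S 2 against 30.7 CPM in HER2 L755S 1, and at 24.9 CPM in HER2 WT 2 against 16.7 CPM in HER2 WT 1. It was higher in number 2 of both lines, by 1.19 and 0.57 on the log2 scale (fit 0.89, SE 0.21, edgeR adjusted p = 0.0098). CCNG2 stood at 120 CPM in HER2 L755S 2 against 76.9 CPM in HER2 L755S 1, and at 110 CPM in HER2 WT 2 against 79.2 CPM in HER2 WT 1 (fit 0.56, SE 0.18, adjusted p = 0.045). KLF9 stood at 15.5 CPM in HER2 L755S 2 against 10.3 CPM in HER2 L755S 1, and at 2.51 CPM in HER2 WT 2 against 1.05 CPM in HER2 WT 1 (fit 0.87, SE 0.29, adjusted p = 0.049).

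The call of SESN3 was kept under each other scaling, filter and tool that had the line as a term. That of CCNG2 was lost with no scaling or no filter (adjusted p = 0.092 and 0.091), and that of KLF9 with no scaling, no filter, a filter of 50 counts, DESeq2 and limma-voom (adjusted p = 0.084, 0.087, 0.051, 0.086 and 0.078). With no scaling, 833 genes were higher and 1934 lower in number 2, against 1366 and 1644 with TMM, and the median of all genes moved to -0.11. TXNIP and TRIB2, which differed strongly between the lines, had number differences of -0.36 (adjusted p = 0.39) and -0.14 (adjusted p = 0.64). For TXNIP the difference lay in HER2 WT (-0.63) and not in HER2 L755S (-0.01), and that contrast was not tested because no residual degree of freedom was left for it. The mitochondrial share was also higher in number 2 of both lines, and its part in these values was not tested.

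**Figure D5:**
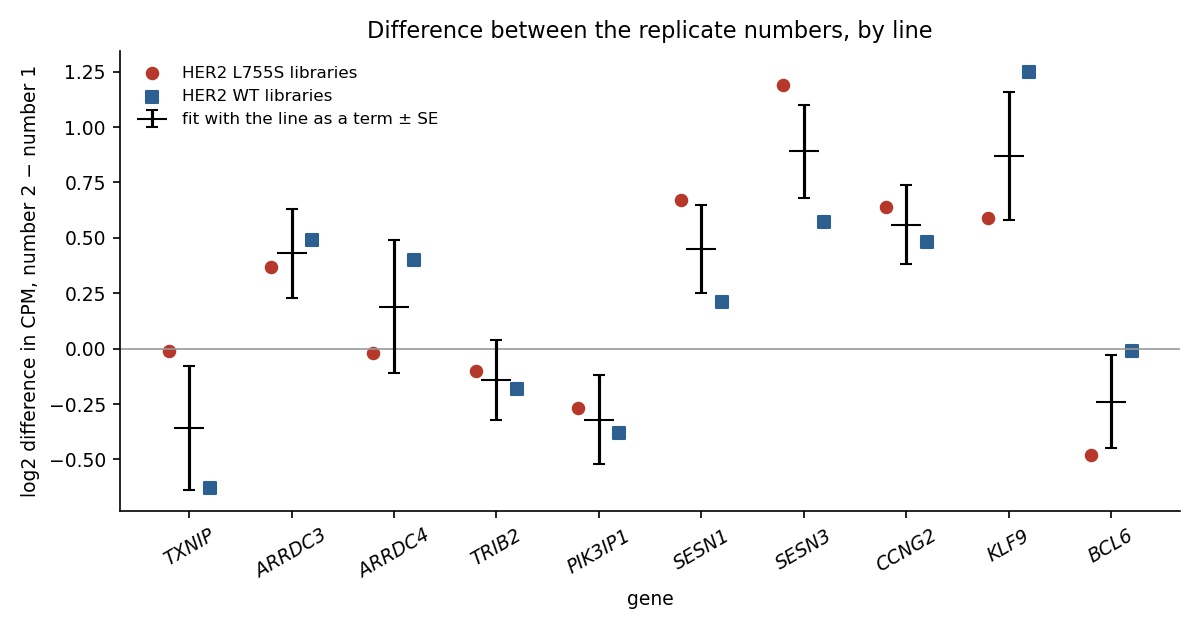
Difference in log2 CPM, number 2 minus number 1, within HER2 L755S (circles), within HER2 WT (squares) and in the fit with the line as a term (bar with its SE). SESN3 (0.89), KLF9 (0.87) and CCNG2 (0.56) were above 0 in both lines, and TXNIP (-0.36), PIK3IP1 (-0.32) and BCL6 (-0.24) had the lowest fits.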

How the data were processed

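The 4 MM134 libraries were poly(A) RNA, each from 250 ng of input per the labels' protocols. Each deposited table is RSEM output per the file headers, with an expected count per gene (an estimated count, which the authors' counting need not leave whole), and with TPM, FPKM and a length weighted over transcripts. The authors computed TPM from these estimates per the file headers, and the deposited FPKM values were not used. STAR, edgeR and GRCh38 are listed, with no version or role, per the submitters' processing notes. Strand setting and annotation release were not given in the sources used here. Both number 2 tables have names with the word merged, unexplained.

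Expected counts were rounded. Genes passing filterByExpr (16538 of 60675) were scaled with TMM (factors 0.937 to 1.04) and tested with edgeR 4.0.16 in R 4.3.3 by the quasi-likelihood test, two-sided, with Benjamini-Hochberg adjustment over all tested genes and a threshold of 0.05. The lines were compared without a term for the number, and the numbers with the line as a term. Within-number differences are log2 CPM with a prior count of 0.5. A gene is called where it passes. The code was tested on simulated data. Between the lines it recovered 6% of simulated 2-fold changes and 78% of 4-fold changes. A gene that was not called between the lines may therefore still differ. The 10 genes and the 20 gene lists were chosen with earlier results of these data known. Named genes were the 10, the FOXO factors, called list genes (up to 4 a list) or else up to 2 a list by adjusted p with at least 5 CPM. AKT1, AKT2, SGK2, SESN2, KLF15, COL1A2 and COL3A1 were added after their values were seen, as were list genes that the replicate block called. Positions and neighbours are from GENCODE 29 on GRCh38. Alternatives were size factors of DESeq2, no scaling, DESeq2 1.42.0, limma-voom (limma 3.58.1), no filter, 50 counts in 2 libraries, a threshold of 0.01, the number as a block, no line term, log2 (TPM + 1) or (TPM + 0.1), and leaving out each library. Leaving out libraries for the number comparison was added after the data were seen.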

Additional observations from a re-analysis of the deposited data

Results flagged for a closer look

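CCNG2 was the 1 gene of the 10 whose difference between the lines had opposite signs within the numbers: HER2 L755S minus HER2 WT was -0.04 in number 1 and 0.11 in number 2, on log2 CPM. ARRDC4 was the 1 whose difference between the numbers had opposite signs in the lines: number 2 minus number 1 was -0.02 in HER2 L755S and 0.40 in HER2 WT. With 1 library per line and number, neither contrast of differences was tested.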

How the results depend on the processing

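Against 279 genes called between the lines, 98 were called at an adjusted p under 0.01, 759 with no filter, 585 with DESeq2 and 1743 with the replicate block, and 344 to 542 with 1 library left out (most without HER2 L755S 1). Against 1 FOXO target called, 2 were called with no filter, 2 with DESeq2 and 5 with the replicate block, and 1 without each library. Against 3010 genes called between the numbers, 818 were called at 0.01, 1705 with no filter and 0 with no term for the line, where 2796 had an unadjusted p under 0.05; DESeq2 with the term called 2175. The cause of these shifts was not tested. Same-numbered libraries deviated together (correlation 0.669 over 11482 genes), but with 2 pairs and no label the number is not known to pair them. The replicate block also called FOXO6 (edgeR adjusted p = 0.028), IRS2 (0.0011), ARRB1 (0.0039), TRIB3 (9.9e-05), TRIB1 (0.013), KLF13 (0.0054) and KLF7 (0.026). The same fit called THRB (0.0094), PHLDA3 (0.0046), HDAC5 (0.0013), TBL1X (0.016) and ESR1 (0.00017). Further calls of that fit were KLF6, KLF15, SGK2, PIK3R1, CAT and MAP1LC3B. Among the 10 genes, it called BCL6, PIK3IP1, SESN1 and SESN3 beside KLF9, TRIB2 and TXNIP. To KLF9, TRIB2 and TXNIP, edgeR with no filter added SESN1 and SESN3, and DESeq2 added SESN1. The genes were picked on this contrast, so nothing is read from these calls of the 10. With the line kept as a term, leaving out each library gave ARRDC4 a number difference of -0.02 to 0.40, with no test (-0.02 without either HER2 WT library). Among named list genes that were not called, line differences changed sign with 1 library left out for CITED2 (-1.03 to 0.22), BBC3 (-0.06 to 1.17) and COL1A1 (-0.37 to 0.75). That of CCNG2, among the 10 genes, changed sign as well (-0.31 to 0.33). The line differences of the 10 genes moved beyond the SD of the libraries in 14 of their alternatives and by less in 96. Those of KLF9 ran from 1.43 with log2 (TPM + 1) to 3.64, of TXNIP from -2.41 to -1.68, of SESN3 from 0.56 to 1.76 and of CCNG2 from -0.31 to 0.33. The lowest counts in a library were 34 for KLF9, 73 for TXNIP and 133 for ARRDC4, which limits their precision.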

Other observations

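Genes of other inputs to TXNIP, ARRDC4 and KLF9 did not pass in the unblocked comparison of the lines. MLXIP, which encodes MondoA, stood at 13.6 and 5.32 TPM in HER2 L755S, against 16.9 and 10.6 TPM in HER2 WT (log2 -0.41, edgeR adjusted p = 0.91). The 10 genes of the MondoA, MLX and MAX network had a median of 0.06, and none was called by edgeR, DESeq2 or limma-voom or had an unadjusted p under 0.05. TXN, the thioredoxin that TXNIP binds, stood at 513 and 635 TPM in HER2 L755S, against 491 and 488 TPM in HER2 WT (log2 0.44, adjusted p = 0.84). Of 8 genes of the thioredoxin system, 7 had positive values (median 0.26), with no call by the 3 tools and no unadjusted p under 0.05.

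Of 9 glucocorticoid-induced genes, 4 had positive values (median -0.01), and FKBP5, a standard marker of that hormone, stood at 5.45 and 3.87 TPM in HER2 L755S against 3.93 and 3.64 TPM in HER2 WT (log2 0.47, adjusted p = 0.83). The thyroid hormone receptor gene THRB had a log2 fold change of -0.92 (adjusted p = 0.30). Of 15 p53 targets beside SESN1, 9 had positive values (median 0.09), and of 10 BCL6 corepressor genes 4 did (median -0.05). None of these genes was called by edgeR, DESeq2 or limma-voom without the replicate block. An unadjusted p under 0.05 was found for 1 glucocorticoid-induced gene (KLF15), 1 receptor gene, 1 p53 target and 2 corepressor genes. KLF15 had a log2 fold change of 2.02 (SE 0.71, edgeR adjusted p = 0.26). Its counts were low, at 43 and 23 in HER2 L755S against 14 and 4 in HER2 WT.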
